A study of Homo sapiens with 6 samples.

Results

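The hepatocyte transcription factors HNF4A, FOXA1 and FOXA2 and the hepatocyte-secreted proteins RBP4, SERPINA1, ALB, TTR and AFP were followed in HLE, an established human hepatocellular carcinoma cell line, after knockdown of the zinc finger transcription factor ZNF281. The 8 genes were listed by name, with earlier results of these data known. Of these, 6 had a row among the 19503 named genes of the expression table, and 4 (HNF4A, FOXA1, RBP4 and SERPINA1) were high enough to be tested. ALB and AFP had no row by symbol or by gene ID and were not analysed here. All 19503 named rows were above 0 in at least 1 library, and whether a missing row stands for a level of 0 was not tested. Total RNA was sequenced from 2 libraries of each of 3 cell lines, 6 in all. The kd.1 and kd.2 lines each carried a different ZNF281 shRNA, the 2 shRNAs matching separate stretches of the coding sequence, and the control line carried a control shRNA. All 3 lines had been infected with lentivirus at a multiplicity of infection of 10 and then kept under puromycin for 7 days, so the control cells shared the infection and the drug. Each group is 1 selected line, and no label says whether its libraries came from separate cultures, so p-values measure only the spread between libraries, which may be technical.

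HNF4A is a nuclear receptor and FOXA1 and FOXA2 are forkhead factors that can bind their sites in closed chromatin. Together they maintain hepatocyte identity and switch on the genes of plasma proteins. RBP4 carries retinol from the liver through the blood, where it travels bound to TTR (transthyretin), which also carries thyroid hormone. SERPINA1 encodes alpha-1 antitrypsin, the main plasma inhibitor of neutrophil elastase. Liver tumour cell lines differ widely in how much of this programme they keep.

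Levels are given as FPKM, a scale on which each gene's fragments are divided by its length and by the size of the library. No label states the unit, so this reading rests on the values themselves. They summed to 505860 to 568020 per library over the named genes, with the second control library highest, and 10526 to 10754 genes stood at 1 FPKM or more. Depth is unknown, so no counting error is given. ZNF281 itself stood at 4.35 and 4.71 FPKM in the kd.1 libraries and 4.37 and 4.47 FPKM in the kd.2 libraries, against 9.52 and 8.43 FPKM in the control libraries. It fell by 0.97 on the log2 scale in kd.1 (adjusted p = 0.000249) and by 1.00 in kd.2 (adjusted p = 0.000241, limma with Benjamini-Hochberg adjustment over all tested genes). The remaining level differed little between the knockdown lines, with a log2 difference of -0.03 for kd.2 minus kd.1 (adjusted p = 0.805).

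Promoters of the tested members are shown because HNF4A and RBP4 were both called higher in kd.1, and so that the letters named for liver factors and for ZNF281 can be seen in place. The RBP4 call was kept in 8 of 17 alternative settings of the fit, given below, and a shared control of the 2 genes was not tested. RefSeq promoter windows on GRCh38.p14, the 250 bases before a transcript start, were at hand for 4 of the 6 members with a row: 2 windows for HNF4A, 3 for RBP4, 1 for FOXA1 and 2 for SERPINA1. FOXA2 and TTR had no entry. Stretches that overlap an annotated exon were left out. Each line reads 5′ to 3′ on the gene's own strand in lower case, and capitals mark a match on either strand to the forkhead letters TGTTTAC with their variants TGTTTGC and also TATTTAC and moreover TATTTGC, to the core HNF4 letters CAAAGTC, to the TATA box TATAAA or to the GC-rich letters CCCTCCC linked to ZNF281.
HNF4A upstream promoter, chr20:44355449-44355698, plus strand: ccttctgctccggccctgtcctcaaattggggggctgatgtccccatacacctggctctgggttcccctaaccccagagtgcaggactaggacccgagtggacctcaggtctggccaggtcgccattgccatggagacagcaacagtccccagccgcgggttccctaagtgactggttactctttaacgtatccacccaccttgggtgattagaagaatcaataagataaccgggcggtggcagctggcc
HNF4A downstream promoter, chr20:44400989-44401238, plus strand: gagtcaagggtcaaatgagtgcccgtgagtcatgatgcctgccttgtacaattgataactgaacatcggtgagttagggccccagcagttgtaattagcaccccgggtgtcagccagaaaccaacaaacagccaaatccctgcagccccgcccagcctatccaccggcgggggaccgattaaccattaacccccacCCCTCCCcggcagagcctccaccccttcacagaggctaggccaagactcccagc
RBP4, chr10:93601236-93601361, minus strand: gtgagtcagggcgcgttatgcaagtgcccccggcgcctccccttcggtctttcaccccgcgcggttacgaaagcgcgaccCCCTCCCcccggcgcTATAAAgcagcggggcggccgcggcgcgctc
RBP4, chr10:93601745-93601994, minus strand: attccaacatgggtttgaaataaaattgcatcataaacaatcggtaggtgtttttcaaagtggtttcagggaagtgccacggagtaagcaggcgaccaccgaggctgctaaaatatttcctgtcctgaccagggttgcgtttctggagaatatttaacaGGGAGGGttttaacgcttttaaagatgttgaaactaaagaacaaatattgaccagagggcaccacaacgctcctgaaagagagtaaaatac
FOXA1, chr14:37595349-37595499, minus strand: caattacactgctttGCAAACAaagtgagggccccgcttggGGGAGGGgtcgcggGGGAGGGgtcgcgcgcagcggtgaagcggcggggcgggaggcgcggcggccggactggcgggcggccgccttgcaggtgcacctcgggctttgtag
SERPINA1, chr14:94390694-94390885, minus strand: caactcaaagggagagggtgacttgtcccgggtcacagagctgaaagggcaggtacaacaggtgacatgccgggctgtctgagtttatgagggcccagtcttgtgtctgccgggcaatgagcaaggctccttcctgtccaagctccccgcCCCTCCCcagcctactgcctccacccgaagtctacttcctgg

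In the downstream HNF4A window, the promoter used in adult liver, CCCTCCC starts 54 bases before the transcript start. None of the listed letters occurs in the upstream HNF4A window. The RBP4 window that ends at the more downstream start has CCCTCCC at 46 bases and TATAAA at 31 bases, and the other RBP4 window shown has CCCTCCC on the opposite strand at 91 bases. FOXA1 has TGTTTGC on the opposite strand at 235 bases and CCCTCCC on the opposite strand at 209 and 195 bases, while the SERPINA1 stretch shown has CCCTCCC at 100 bases. The other SERPINA1 window, left out because it lies in annotated exons, has the forkhead letters TGTTTGC at 108 bases. The RBP4 window not shown has TATAAA at 225 bases and, on the opposite strand, at 227 bases. Among 35116 windows of the same length, TGTTTGC occurs in 3.23%, CAAAGTC in 2.91%, TATAAA in 10.7% and CCCTCCC in 24.7%. These matches describe letters, and binding at them was not measured. The table gives 1 value per gene, so the alternative starts of HNF4A, RBP4 and SERPINA1 could not be told apart.

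The members spanned a wide range of levels in HLE cells. FOXA1 was the highest, at 9.67 ± 0.39 FPKM in kd.1, 6.92 ± 0.04 FPKM in kd.2 and 8.79 ± 1.07 FPKM in control cells (SD, n = 2 libraries each), above 67.1%, 63.0% and 66.2% of the named genes in those groups. SERPINA1 and RBP4 came next, at 1.88 to 3.17 FPKM and 1.16 to 3.36 FPKM over the 6 libraries, and their libraries overlapped in kd.1 and in control cells but not in kd.2. HNF4A lay below both in every group, and FOXA2 and TTR lay near 0. Because FPKM is scaled to length, these levels can be set beside each other. In bulk RNA, fewer cells with a transcript and less of it per cell cannot be told apart.

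**Figure D1:**
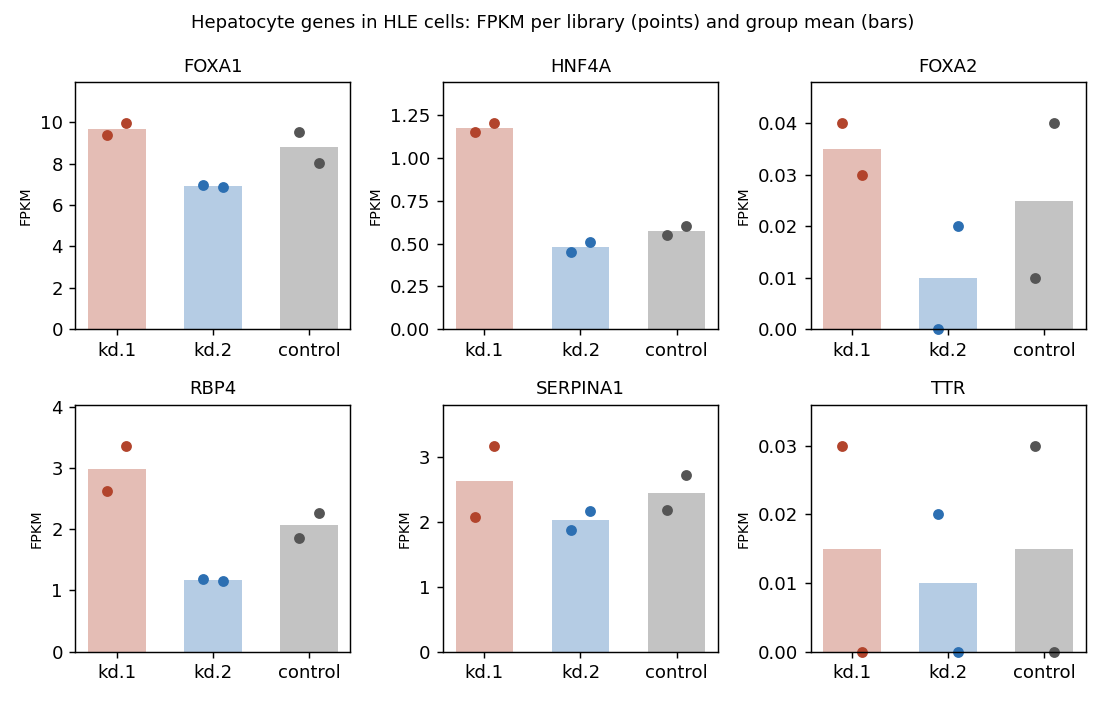
FPKM of the 6 members with a row in each library (points) and the group mean (bars) for kd.1, kd.2 and control HLE cells, each panel on its own linear axis from 0. Both kd.1 points lie above all other points for HNF4A and RBP4, both kd.2 points lie below all other points for FOXA1 and RBP4, and FOXA2 and TTR stay at or below 0.04 FPKM.

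HNF4A (gene ID 3172, chr20:44355700-44434596, plus strand, GENCODE 29 on GRCh38) had 1.15 and 1.2 FPKM in the kd.1 libraries and 0.45 and 0.51 FPKM in the kd.2 libraries, against 0.55 and 0.60 FPKM in the control libraries. Both kd.1 libraries lay above all 4 others, and both kd.2 libraries lay below both control libraries. In kd.1 cells HNF4A was 1.89-fold higher than in control cells (log2 change 0.92 ± 0.15 SE, 95% interval 0.57 to 1.26, adjusted p = 0.00327). In kd.2 cells the change of -0.22 ± 0.15 was not called (95% interval -0.56 to 0.12, adjusted p = 0.272), and it became 0.19 after quantile normalization. The difference between the lines was called directly, with kd.2 2.2-fold lower than kd.1 (log2 difference -1.14 ± 0.15, adjusted p = 0.000848).

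Only the kd.1 libraries carried HNF4A past the filter of 1 FPKM in at least 2 libraries, so it entered the test through the group in which it was high. Without any filter its kd.1 change kept an adjusted p of 0.00812. With 1 FPKM added in place of 0.1, the log2 change was 0.47 in kd.1 (adjusted p = 0.00301). HNF4A shares its locus with the antisense gene HNF4A-AS1, which had no row by that symbol, so no level can be given for it. The sources used here do not say whether counting used strand, so reads from the pair cannot be told apart.

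FOXA1 (gene ID 3169, chr14:37589984-37596059, minus strand) had 9.39 and 9.94 FPKM in the kd.1 libraries and 6.95 and 6.89 FPKM in the kd.2 libraries, against 9.54 and 8.03 FPKM in the control libraries. The kd.2 libraries lay below all others, while the kd.1 and control libraries overlapped. FOXA1 fell by 0.33 ± 0.09 on the log2 scale in kd.2, a level 1.26-fold lower than in control cells (adjusted p = 0.0247). In kd.1 the log2 change was 0.14 ± 0.09 and not called (95% interval -0.08 to 0.36, adjusted p = 0.288). Set directly against kd.1, the kd.2 level was 1.39-fold lower (log2 difference -0.48 ± 0.09, adjusted p = 0.00600).

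The kd.2 change of FOXA1 was not called after each library was scaled to a common FPKM sum (-0.24, adjusted p = 0.167), nor without either kd.2 library (adjusted p = 0.121 without the first and 0.129 without the second). Without the first control library the kd.1 change was called instead (0.26, adjusted p = 0.0170). The kd.2 minus kd.1 difference of FOXA1 missed the threshold without the second kd.1 library (adjusted p = 0.0540) and without the first or the second kd.2 library (adjusted p = 0.0536 and 0.0523). TTC6, on the opposite strand of the FOXA1 locus, stood at 0.17 to 0.31 FPKM in the 6 libraries.

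FOXA2 (gene ID 3170, chr20:22581005-22585455, minus strand), the second forkhead member, had 0.04 and 0.03 FPKM in kd.1, 0 and 0.02 FPKM in kd.2 and 0.01 and 0.04 FPKM in control cells. The groups overlapped. Fitted without a filter, none of its 3 comparisons was called (adjusted p from 0.293 to 0.713). FOXA3, the remaining gene of the subfamily, stood between 0.01 and 0.09 FPKM, so FOXA1 was the FOXA gene with a level above 1 FPKM in these cells.

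RBP4 (gene ID 5950, chr10:93591687-93601744, minus strand) was called in both lines, in opposite directions. It had 2.62 and 3.36 FPKM in the kd.1 libraries and 1.18 and 1.16 FPKM in the kd.2 libraries, against 1.86 and 2.27 FPKM in the control libraries. No 2 groups overlapped. RBP4 rose 1.42-fold in kd.1 (log2 change 0.51 ± 0.15, 95% interval 0.17 to 0.85, adjusted p = 0.0348). It was 1.70-fold lower in kd.2 than in control cells (log2 change -0.76 ± 0.15, adjusted p = 0.00584) and 2.42-fold lower in kd.2 than in kd.1 (log2 difference -1.27 ± 0.15, adjusted p = 0.000494).

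The 2 directions of RBP4 were not equally firm. The fall in kd.2 and the difference between the lines kept their calls in all 17 alternatives in which they could be run, although adding 1 FPKM in place of 0.1 reduced the kd.2 change to -0.50. The rise in kd.1 kept its call in 8 of 17. It was not called without the second kd.1 library (0.34, adjusted p = 0.248), without the first control library (0.37, adjusted p = 0.0790), without either kd.2 library (adjusted p = 0.0685 and 0.0681), with no filter (0.0690) or after median centring (0.0530). FFAR4, which overlaps the RBP4 locus on the opposite strand, stood at 0.17 to 0.33 FPKM.

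SERPINA1 (gene ID 5265, chr14:94376747-94390693, minus strand) had 2.08 and 3.17 FPKM in the kd.1 libraries and 1.88 and 2.17 FPKM in the kd.2 libraries, against 2.18 and 2.72 FPKM in the control libraries. The kd.1 values enclosed the control values, while both kd.2 values lay just below them. No comparison was called. The log2 change was 0.07 in kd.1 (95% interval -0.37 to 0.52, adjusted p = 0.796) and -0.26 in kd.2 (95% interval -0.70 to 0.18, adjusted p = 0.313), and the log2 difference of kd.2 minus kd.1 was -0.33 (95% interval -0.77 to 0.11, adjusted p = 0.220). These intervals still allow changes as large as that of FOXA1 in kd.2. These values depended on single kd.1 libraries: without the first kd.1 library the difference between the lines was -0.63 and called (adjusted p = 0.0444), and without the second the kd.1 change was -0.22.

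TTR (gene ID 7276, chr18:31557010-31599021, plus strand) was listed at 0.03 and 0 FPKM in kd.1, 0.02 and 0 FPKM in kd.2 and 0.03 and 0 FPKM in control cells. The carrier partner of RBP4 was therefore at or near 0 in every library, including those in which RBP4 was highest. Fitted without a filter, its comparisons gave adjusted p values from 0.869 to 1.

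Calls were common among all genes, and with 4 tested members nothing is read from their number. HNF4A is among the 4 only through its kd.1 libraries, so its place in these counts is not independent of its level in kd.1. In kd.1, 2 of the 4 tested members were called, HNF4A and RBP4, both higher, where 29.2% of the 10851 tested genes were called (15.8% higher and 13.4% lower). In kd.2, 2 of the 4 were called, FOXA1 and RBP4, both lower, where 37.9% of all tested genes were called (15.7% higher and 22.2% lower). Between the lines, 3 of the 4 were lower in kd.2 than in kd.1, where 32.2% of all tested genes were called (11.9% higher and 20.3% lower). The median log2 change over all tested genes was 0.02 in kd.1, -0.03 in kd.2 and -0.05 for kd.2 minus kd.1. The split of calls over all genes moved with scaling: 1712 higher and 1454 lower in kd.1 became 1897 and 851 with a common FPKM sum and 1362 and 1723 with median centring. In kd.2, 1705 higher and 2405 lower became 2122 and 1345 with a common FPKM sum and 2171 and 2035 with quantile normalization, and for kd.2 minus kd.1, 1289 higher and 2207 lower became 1691 and 1728 with median centring and 1747 and 1774 with quantile normalization. Both comparisons against control used the same 2 control libraries, so the values of the lines stand side by side and no relation between them was computed.

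**Figure D2:**
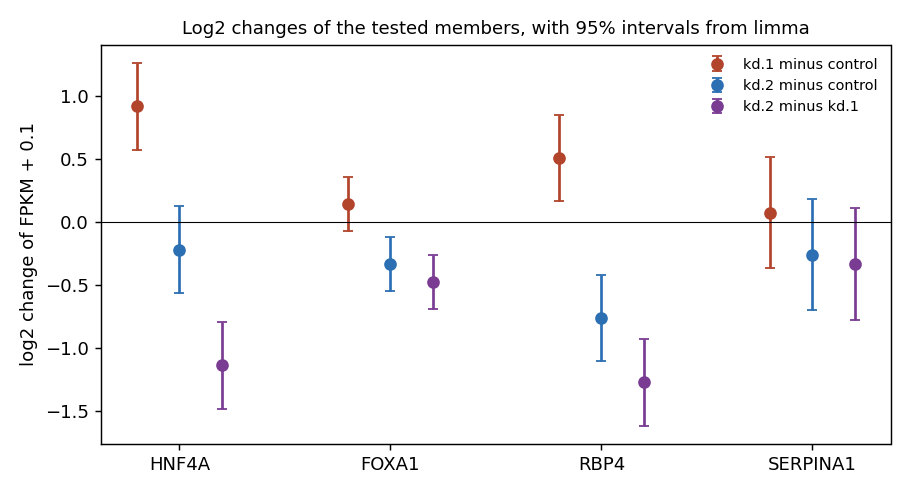
Log2 change of FPKM + 0.1 for the 4 tested members, as kd.1 minus control, kd.2 minus control and kd.2 minus kd.1, with 95% intervals from limma (2 libraries per group). The interval of HNF4A lies above 0 in kd.1 only, the RBP4 intervals lie above 0 in kd.1 and below 0 in kd.2, FOXA1 lies below 0 in kd.2, and all 3 SERPINA1 intervals cross 0.

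The genes with the most similar profiles over the 6 libraries, by Euclidean distance between centred log2 values among 10850 other tested genes, were MAN2B2 (distance 0.162), GPR39 (0.205) and CDCA7L (0.230) for HNF4A. For FOXA1 they were RNF219 (0.0668), ALDH6A1 (0.0759) and ZNF594 (0.0873). RBP4 was nearest to CHST13 (0.249), KHK (0.274) and HOXB13 (0.305), and SERPINA1 to LOC107987205 (0.191), DEPDC4 (0.208) and IL18BP (0.215). KHK, the liver enzyme that begins fructose breakdown, was the only one of these 12 genes that was also on a list of liver functions used here. It had 5.23 and 5.55 FPKM in kd.1 and 2.24 and 2.44 FPKM in kd.2, against 3.94 and 4.50 FPKM in control cells. Its rise in kd.1 (1.27-fold, limma adjusted p = 0.0364) was kept in 8 of 18 alternatives, while it was 1.77-fold lower in kd.2 (adjusted p = 0.000929). KHK was picked for its likeness to RBP4 over these same libraries. Its directions therefore follow from that choice and are no separate support for those of RBP4.

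Among 26 liver-enriched transcription factors, HNF4A and FOXA1 included, 14 were tested, and 9 were under 0.1 FPKM in every library, FOXA2, FOXA3, NR1H4, PROX1 and GATA4 among them. Of all tested genes, 15.8% were higher and 13.4% lower in kd.1, and 15.7% higher and 22.2% lower in kd.2. Among the 14 factors, 2 rose in kd.1 (HNF4A and TBX3) and 4 fell (CEBPD, NR2F1, HHEX and GATA6). HNF4A was tested only through its kd.1 libraries, so its place in this count is not independent of its rise. In kd.2, 1 rose (PPARA) and 2 fell (FOXA1 and NR1H3), whereas without either kd.2 library 0 of the 14 were called. The median log2 change of the 14 was -0.07 in kd.1 and -0.03 in kd.2, beside 0.02 and -0.03 over all tested genes. Both medians turned positive with a common FPKM sum, and that of kd.2 also with quantile normalization.

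TBX3, a T-box factor of the developing liver, averaged 11.9 FPKM in kd.1 and 7.68 FPKM in kd.2, against 6.76 FPKM in control cells, a 1.75-fold rise in kd.1 (adjusted p = 0.00167). CEBPD, a C/EBP factor of the acute phase response, averaged 32.7 FPKM in kd.1 and 55.3 FPKM in kd.2, against 47.1 FPKM in control cells, and was 1.44-fold lower in kd.1 (adjusted p = 0.00452). NR2F1, an orphan nuclear receptor, was 1.61-fold lower in kd.1 (adjusted p = 0.000748).

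HHEX, GATA6 and PPARA were named after their values were seen. HHEX, a homeobox factor of early liver, was 1.51-fold lower in kd.1 (adjusted p = 0.00293), and GATA6, a zinc finger factor of early endoderm, 1.47-fold lower (adjusted p = 0.00289). PPARA, the fatty acid-sensing receptor, rose 1.40-fold in kd.2 (adjusted p = 0.0354, call kept in 11 of 17 alternatives), and NR1H3, the oxysterol receptor, was 1.28-fold lower (adjusted p = 0.0460, kept in 5 of 18). CEBPA, the C/EBP factor of mature hepatocytes, averaged 1.13 FPKM in kd.1 and 0.695 FPKM in kd.2, against 0.810 FPKM in control cells, with neither change against control called (adjusted p = 0.128 and 0.435). Set directly against kd.1, CEBPA was called lower in kd.2 (limma, log2 difference -0.64, adjusted p = 0.0378), and alternatives were not run for this call. Like HNF4A, CEBPA passed the filter only through its kd.1 libraries.

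**Figure D3:**
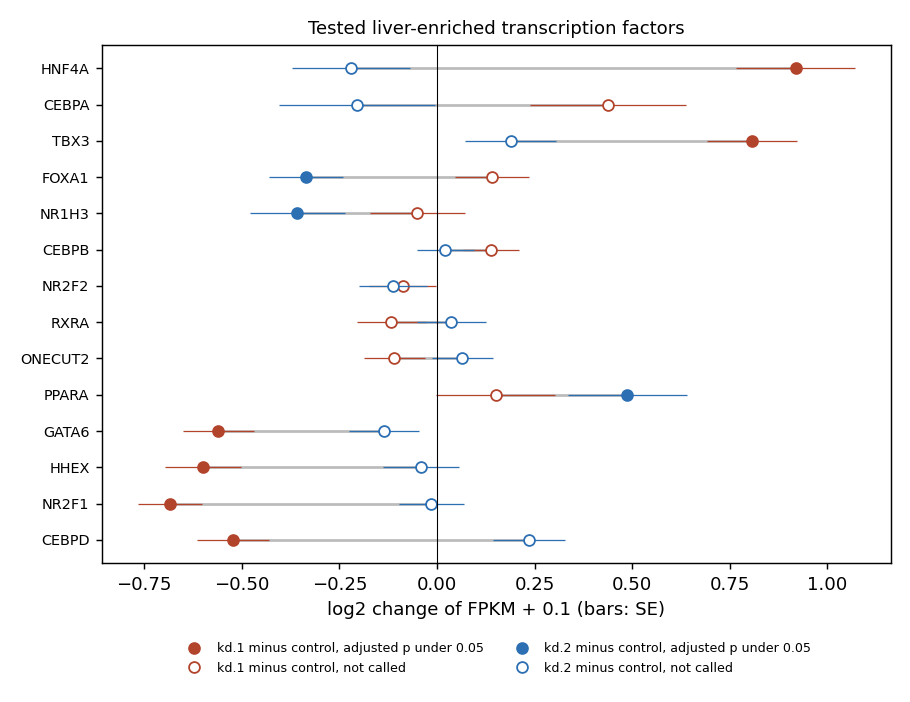
Log2 change of FPKM + 0.1 with its SE for the 14 tested liver-enriched transcription factors, kd.1 minus control in red and kd.2 minus control in blue, filled where the adjusted p was under 0.05. HNF4A (0.92) and TBX3 (0.81) lie farthest to the right in kd.1 and NR2F1 (-0.68) farthest to the left, while FOXA1 and NR1H3 lie left of 0 and are filled in kd.2.

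Of 29 transport and acute phase plasma proteins, RBP4, SERPINA1 and TTR included, 26 had a row, 5 were tested and 18 were under 0.1 FPKM in every library. In kd.1, 2 rose (RBP4 and CP) and 1 fell (SAA1), where 15.8% of all tested genes were higher and 13.4% lower. In kd.2 none rose and 3 fell (RBP4, VTN and SAA1), with 0 and 3 also at an unadjusted p under 0.05 in limma. There, 15.7% of all tested genes were higher and 22.2% lower. The median log2 change of the 5 was 0.07 in kd.1 and -0.76 in kd.2, beside 0.02 and -0.03 over all tested genes. The kd.1 median is the value of SERPINA1, so its sign turned wherever that of SERPINA1 did. VTN, the adhesive plasma protein vitronectin, had 11.65 and 14.00 FPKM in kd.1 and 6.22 and 6.58 FPKM in kd.2, against 14.12 and 14.50 FPKM in control cells, and was 2.22-fold lower in kd.2 (adjusted p = 0.000166).

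CP, the copper-carrying ferroxidase ceruloplasmin, rose 1.52-fold in kd.1 (adjusted p = 0.00502), with 9.02 and 10.02 FPKM in kd.1 and 5.08 and 5.61 FPKM in kd.2, against 6.82 and 5.69 FPKM in control cells. SAA1, an acute phase protein, had 0.53 and 0.44 FPKM in kd.1 and 2.47 and 1.99 FPKM in kd.2, against 3.68 and 5.62 FPKM in control cells. It was 7.97-fold lower in kd.1 (adjusted p = 5.13e-05), a log2 change of -2.99 that was -1.91 with a pseudocount of 1, and 2.01-fold lower in kd.2 (adjusted p = 0.00637), the kd.2 change not called without the second kd.2 library (adjusted p = 0.0634). TF (transferrin), APOA1, APOE, CYP3A4 and CYP7A1 were at or below 0.05 FPKM in every library, and FGB, the fibrinogen beta chain, between 0.01 and 0.13 FPKM. The list of hepatocyte markers held 12 genes, of which 9 had a row. Of these, 5 (TTR, APOA1, TF, CYP3A4 and FGB) were under 0.15 FPKM in every library, and the other 4 were HNF4A, RBP4, SERPINA1 and CPS1. CPS1, the mitochondrial enzyme that begins the urea cycle, averaged 459 FPKM in kd.1 and 320 FPKM in kd.2, against 276 FPKM in control cells.

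**Figure D4:**
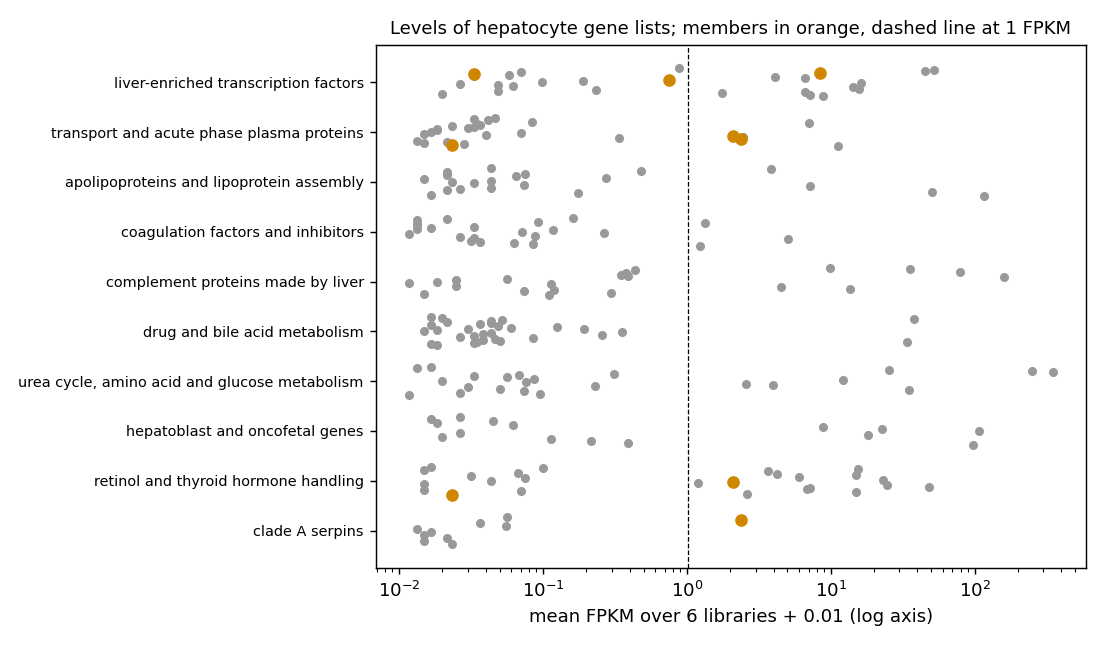
Mean FPKM over all 6 libraries, with 0.01 added and on a log axis, of each gene with a row in 10 lists of liver functions. Members are drawn in orange and the dashed line marks 1 FPKM. Most plasma proteins, coagulation factors and drug-metabolising genes lie left of the line. Of the members, TTR, FOXA2 and HNF4A (mean 0.74 FPKM) lie left of it, while FOXA1, RBP4 and SERPINA1 lie right of it.

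The genes that handle retinol, the cargo of RBP4, and thyroid hormone numbered 27, of which 25 had a row and 14 were tested, RBP4 included. In kd.1, 2 rose (RBP4 and RDH11) and 4 fell (DHRS3, CRABP2, RARA and RARG). In kd.2 none rose and 6 fell (RBP4, DHRS3, ALDH1A3, CRABP2, RARA and THRA), where limma gave 2 higher and 7 lower at an unadjusted p under 0.05. Without the first kd.1 library 1 of the 14 fell in kd.1, and without the first or the second kd.2 library 3 or 4 fell in kd.2. Their median log2 change was -0.12 in kd.1 and -0.19 in kd.2, beside 0.02 and -0.03 over all tested genes. Of all tested genes, 15.8% were higher and 13.4% lower in kd.1, and 15.7% higher and 22.2% lower in kd.2. STRA6, the cell surface receptor of RBP4, was at or below 0.09 FPKM throughout.

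DHRS3, which returns retinal to retinol, averaged 12.6 FPKM in kd.1 and 12.5 FPKM in kd.2, against 19.6 FPKM in control cells, and was 1.56-fold lower in kd.1 (adjusted p = 0.00462) and 1.57-fold lower in kd.2 (adjusted p = 0.00388). RDH11, a retinal reductase, rose 1.34-fold in kd.1 (adjusted p = 0.00139). ALDH1A3, which makes retinoic acid, was 1.35-fold lower in kd.2 (adjusted p = 0.0160, kept in 15 of 18 alternatives), and RARG, a retinoic acid receptor, 1.21-fold lower in kd.1 (adjusted p = 0.0233, kept in 13 of 18). CRABP2, RARA and THRA were named after their values were seen. CRABP2, which brings retinoic acid to its receptors, was 2.43-fold lower in kd.2 (adjusted p = 0.000313) and 1.32-fold lower in kd.1 (adjusted p = 0.0447, kept in 8 of 17). RARA, another retinoic acid receptor, was 1.37-fold lower in kd.1 and 1.39-fold lower in kd.2 (adjusted p = 0.00806 and 0.00557, kept in 16 and 17 of 18), and THRA, a thyroid hormone receptor, 1.19-fold lower in kd.2 (adjusted p = 0.0345, kept in 7 of 18).

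SERPINA1 was the only tested gene of 12 clade A serpins. Of the 10 with a row, 8 were under 0.1 FPKM in every library. SERPINA2, its paralog next to it, was listed at 0 in 5 libraries and at 0.02 FPKM in the first control library. The machinery that folds alpha-1 antitrypsin and other plasma proteins and carries them out of the endoplasmic reticulum was measured far more fully, with 24 of 25 genes tested. Of these, 8 rose and 1 fell in kd.1, where 15.8% of all tested genes were higher and 13.4% lower. In kd.2, 15 of the 24 rose and none fell (limma, with 17 higher and 0 lower at an unadjusted p under 0.05). There, 15.7% of all tested genes were higher and 22.2% lower. Over 17 alternatives, 6 to 19 of the secretory genes rose and none fell in kd.2. In kd.1, 3 to 15 rose over the same alternatives. The gene that fell in kd.1 was SAR1A, a GTPase of vesicle budding named after its values were seen, with a log2 change of -0.42 (adjusted p = 0.00189). The median log2 change was 0.15 in kd.1 and 0.28 in kd.2, both above 0 in each of those alternatives, beside 0.02 and -0.03 over all tested genes.

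LMAN1, the cargo receptor that carries alpha-1 antitrypsin and was named after its values were seen, had 65.03 and 68.41 FPKM in kd.1 and 124.5 and 125.5 FPKM in kd.2, against 75.86 and 58.83 FPKM in control cells. It rose 1.87-fold in kd.2 (adjusted p = 0.000673) and was not called in kd.1 (adjusted p = 0.988). SURF4, another cargo receptor, rose 1.37-fold in kd.2 (adjusted p = 0.00133), HSPA5, the main chaperone of the compartment, 1.29-fold (adjusted p = 0.00302), and SEC13, a coat protein of the carriers, 1.28-fold (adjusted p = 0.00299), the last 2 calls kept in 17 of 18 alternatives each. CANX, a chaperone of glycoproteins, rose 1.30-fold in kd.1 (adjusted p = 0.0122, kept in 14 of 18 alternatives) and 1.22-fold in kd.2 (adjusted p = 0.0285, kept in 10 of 18). SERPINA1 itself was not called in either line.

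In the other liver functions few genes were tested. Of 21 complement genes, 6 were tested. None rose and 4 fell in kd.1 (C3, C1S, C1R and CFB), where 15.8% of all tested genes were higher and 13.4% lower. None of the 6 rose and 5 fell in kd.2 (the same 4 and C4BPB), where 15.7% of all tested genes were higher and 22.2% lower. At an unadjusted p under 0.05, limma likewise gave 0 higher in either line. Without either kd.2 library, 1 of the 6 fell in kd.2. C1R, a protease of the first complement component, averaged 4.04 FPKM in kd.1 and 9.14 FPKM in kd.2, against 16.6 FPKM in control cells, and was 4.04-fold lower in kd.1 (adjusted p = 7.74e-06) and 1.81-fold lower in kd.2 (adjusted p = 0.000223). C3, the central complement protein, was 1.71-fold lower in kd.1 (adjusted p = 0.00114) and 1.30-fold lower in kd.2 (adjusted p = 0.0215, kept in 15 of 18 alternatives). C1S was 2.02-fold and 1.28-fold lower (adjusted p = 4.75e-05 and 0.00461, the kd.2 call kept in 16 of 18). CFB, factor B of the alternative pathway and named after its values were seen, was 2.23-fold lower in kd.1 (adjusted p = 0.000551) and 1.32-fold lower in kd.2 (adjusted p = 0.0416, kept in 10 of 18), and C4BPB, a complement inhibitor chain, was 1.18-fold lower in kd.2 (adjusted p = 0.0361, kept in 5 of 18). The complement median was -0.89 in kd.1 and -0.37 in kd.2, beside 0.02 and -0.03 over all tested genes.

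Of 26 apolipoprotein and lipoprotein genes, 4 were tested. PON2, a lactonase, rose in both lines (1.75-fold in kd.1, adjusted p = 7.04e-05, and 1.16-fold in kd.2, adjusted p = 0.0237, kept in 11 of 18 alternatives). APOM, a carrier of sphingosine 1-phosphate, was lower in both (1.35-fold, adjusted p = 0.0333, kept in 9 of 18, and 1.88-fold, adjusted p = 0.00128), as was ANGPTL4, a lipase inhibitor (1.47-fold, adjusted p = 0.0105, kept in 16 of 18, and 2.05-fold, adjusted p = 0.000639). Of 23 coagulation genes, 3 were tested: PROS1, the cofactor protein S, rose 1.67-fold in kd.1 (adjusted p = 0.00188), and F12, factor XII, was 1.47-fold lower in kd.1 (adjusted p = 0.0146, kept in 13 of 17) and 1.33-fold higher in kd.2 (adjusted p = 0.0359, kept in 7 of 17). SERPINF2, the plasmin inhibitor, had discordant duplicates, with 1.69 and 0.18 FPKM in kd.1 and 1.71 and 1.93 FPKM in kd.2, against 0.10 and 1.76 FPKM in control cells, and was not called.

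Of 26 genes of urea, amino acid and glucose metabolism, 7 were tested, with 2 higher and 1 lower in kd.1 and none higher and 3 lower in kd.2 (limma, 1 and 4 at an unadjusted p under 0.05). Among all tested genes, 15.8% were higher and 13.4% lower in kd.1, and 15.7% higher and 22.2% lower in kd.2. CPS1 rose 1.66-fold in kd.1 (adjusted p = 0.000395) and was not called in kd.2 (log2 change 0.21, adjusted p = 0.0595). HPD, of tyrosine breakdown, was 1.69-fold lower in kd.1 (adjusted p = 0.00321) and 3.13-fold lower in kd.2 (adjusted p = 0.000121), and GLUL, glutamine synthetase, 1.26-fold lower in kd.2 (adjusted p = 0.0129, kept in 15 of 18 alternatives). Of 33 genes of drug and bile acid metabolism, 2 were tested, and the export pump ABCC2 rose 1.38-fold in kd.1 (adjusted p = 0.00908, kept in 16 of 18). Among 17 hepatoblast and oncofetal genes, 5 were tested: TSPAN8, a tetraspanin, rose 1.80-fold in kd.1 (adjusted p = 0.000112) and was 1.60-fold lower in kd.2 (adjusted p = 0.000360), and PEG10, a retrotransposon-derived gene of fetal liver, was 2.36-fold lower in kd.2 (adjusted p = 0.000258).

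Markers of other liver cell types were measured beside these groups. Of 5 cholangiocyte markers, EPCAM and CFTR were under 0.1 FPKM in every library, while the summed level was 784 to 831 FPKM in kd.1 and 550 to 576 FPKM in kd.2, against 570 to 604 FPKM in control cells, most of it the simple-epithelial keratin KRT7. KRT7 rose 1.5-fold in kd.1 (adjusted p = 0.00101), the line in which HNF4A and RBP4 were higher, and KRT19 was 1.25-fold lower in kd.2 (adjusted p = 0.0194, kept in 14 of 18 alternatives). Stellate cell markers summed to 1.56 to 1.96 FPKM in kd.1 and 1.08 to 1.12 FPKM in kd.2, against 1.37 to 1.39 FPKM in control cells, with COL1A2 and LRAT under 0.1 FPKM in every library. COL1A1 had 1.06 and 1.39 FPKM in kd.1 and 0.45 and 0.52 FPKM in kd.2, against 0.58 and 0.55 FPKM in control cells (1.98-fold higher in kd.1, adjusted p = 0.00443), and it passed the filter only through its kd.1 libraries. Endothelial markers summed to 1.21 to 1.44 FPKM in kd.1 and 1.21 to 1.41 FPKM in kd.2, against 2.53 to 3.02 FPKM in control cells, with VWF, STAB2 and LYVE1 under 0.1 FPKM in every library. CDH5 had 0.61 and 1.01 FPKM in kd.1 and 0.69 and 0.82 FPKM in kd.2, against 2.42 and 1.86 FPKM in control cells (2.50-fold lower in kd.1 and 2.61-fold lower in kd.2, adjusted p = 0.00371 and 0.00264), and it passed the filter only through the control libraries, where it was high.

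Leukocyte markers summed to 30.8 to 31.3 FPKM in kd.1 and 30.4 to 32.8 FPKM in kd.2, against 22.3 to 25.8 FPKM in control cells, almost all of it CD68, with PTPRC, which marks all leukocytes, at or below 0.07 FPKM. CD68 rose 1.29-fold in kd.1 (adjusted p = 0.0105, kept in 14 of 18 alternatives) and 1.32-fold in kd.2 (adjusted p = 0.00646, kept in 17 of 18). Erythroid markers summed to 0.92 to 1.06 FPKM in kd.1 and 1.90 to 1.97 FPKM in kd.2, against 1.64 to 1.74 FPKM in control cells, with HBB and ALAS2 under 0.1 FPKM in every library. HBA1, nearly all of the erythroid sum, was 1.60-fold lower in kd.1 (adjusted p = 0.00505). The part of KRT7, COL1A1, CDH5, CD68 or HBA1 in the members' changes was not tested.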

How the data were processed

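Processing bears on these genes in the following way. Per the submitters' processing notes, the tools were RSEM 1.2.12, HISAT2 2.0.4 and Bowtie2 2.2.5, without their roles, and the builds named were hg38 and GRCh38.p11. The table the authors deposited holds 21372 features in 6 columns, and its values were read as FPKM from their range, and strandedness and depth are not given in the sources used here. Its 1869 features without a gene name were left out. The 10851 genes that reached 1 FPKM in 2 libraries or more were analysed as log2(FPKM + 0.1) in limma 3.58.1 (R 4.3.3). The model had a mean for each group, used all 6 libraries (3 residual degrees of freedom), and moderated variances robustly along an intensity trend. Calls required an adjusted p (Benjamini-Hochberg, within 1 comparison) below 0.05. SDs are over 2 libraries, SEs and intervals are from limma, and fold changes are on the log2(FPKM + 0.1) scale, which understates changes of low genes. An exact permutation test is not given, because pairs of duplicates are too few for it to reach 0.05. The members and gene lists were chosen with earlier results of these data known. By the rule for named genes, the text names the members, up to 4 genes per list by mean FPKM and up to 4 called ones, the 3 nearest profiles per member and ZNF281, and exceptions are marked. A few list genes are not reported here. Promoters are from RefSeq on GRCh38.p14 and loci from GENCODE 29 on GRCh38. Alternatives changed the pseudocount, the filter, the scaling, the fit and the libraries included. A kept call means the same direction with an adjusted p still under 0.05.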

Additional observations from a re-analysis of the deposited data

Results flagged for a closer look

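The kd.2 and kd.1 lines differed (limma, adjusted p under 0.05) for 3 members: the log2 difference of kd.2 minus kd.1 was -1.14 for HNF4A, -0.48 for FOXA1 and -1.27 for RBP4. Because the control level cancels, this comparison is the direct test of a difference between the lines' changes, and with 1 line per shRNA the shRNA and the line cannot be told apart. HNF4A entered the test only through its kd.1 libraries, so its call is not independent of its level in kd.1. The call was kept in 14 of 18 alternatives for FOXA1, in all 15 for HNF4A and in all 17 for RBP4. For ZNF281 itself the difference was -0.03 and not called (adjusted p = 0.805), and the reason for the members' differences was not tested.

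The nearest-profile genes other than KHK are left out of the following lists. KHK was picked for its likeness to RBP4 over these libraries, so its difference is not independent of that of RBP4. Among the other genes named, those lower in kd.2 than in kd.1 were TSPAN8 (-1.52), PEG10 (-1.24), KHK (-1.17), COL1A1 (-1.17), VTN (-0.99), HPD (-0.89), CRABP2 (-0.89), CP (-0.82), PROS1 (-0.77), CEBPA (-0.64), TBX3 (-0.62), PON2 (-0.60), KRT7 (-0.58), GLUL (-0.56), CPS1 (-0.52), ANGPTL4 (-0.48), APOM (-0.48), ABCC2 (-0.40), C4BPB (-0.28) and RDH11 (-0.27), all as log2 differences. Those higher in kd.2 than in kd.1 were SAA1 (1.99), C1R (1.16), F12 (0.97), LMAN1 (0.91), HBA1 (0.89), CFB (0.76), CEBPD (0.76), NR2F1 (0.67), C1S (0.65), SURF4 (0.60), HHEX (0.56), GATA6 (0.42), SAR1A (0.42), C3 (0.40), SEC13 (0.30) and HSPA5 (0.23). With a pseudocount of 1 in place of 0.1, the difference was 1.12 for SAA1 and -0.58 for COL1A1. Of all tested genes, 20.3% were lower and 11.9% higher in kd.2 than in kd.1. The call was kept in 11 of 18 alternatives for C4BPB, 12 of 18 for RDH11, SEC13 and HSPA5 and 13 of 18 for APOM. It was kept in 13 of 17 for GATA6 and 14 of 18 for ABCC2, ANGPTL4 and C3. COL1A1 and CEBPA passed the filter only through their kd.1 libraries.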

How the results depend on the processing

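HNF4A kept its rise in kd.1 and its difference between the lines in all 15 alternatives that could be run, with log2 values of 0.47 to 1.02 and -1.28 to -0.56. It fell out of the filter without either kd.1 library, and with the genes kept (an alternative chosen after seeing the data) the adjusted p was 0.0222 and 0.0302. Its kd.2 change turned to 0.19 with quantile normalization. RBP4 kept both kd.2 calls in all 17. Its kd.1 rise lost the call with no filter or with only the compared groups fitted (0.51 each), with median centring (0.47) and with quantile normalization (0.48). FOXA1 in kd.2 lost it with no filter (-0.33, adjusted p = 0.0501) and with a common FPKM sum (-0.24). The cause was not tested.

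Leaving out 1 library at a time gave, for kd.1 minus control, kd.2 minus control and kd.2 minus kd.1, 0.018 to 0.26, -0.46 to -0.21 and -0.52 to -0.44 for FOXA1, 0.34 to 0.68, -0.90 to -0.63 and -1.45 to -1.10 for RBP4 and -0.22 to 0.37, -0.41 to -0.10 and -0.63 to -0.040 for SERPINA1, whose kd.1 change was -0.22 without the second kd.1 library and -0.08 without the first control library. With the genes of the filter on all 6 libraries kept, the values without the second kd.1 library were -0.44 for FOXA1 (kd.2 minus kd.1), 0.34 for RBP4 (kd.1) and -0.22 for SERPINA1 (kd.1), and without the first kd.1 library -0.63 for SERPINA1 (kd.2 minus kd.1). The stricter filter of 5 FPKM left FOXA1 alone among the members.

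The genes called over all genes numbered 1255 to 5507 in kd.1, 1284 to 6145 in kd.2 and 1391 to 5499 between the lines when 1 library was left out. They numbered 1336 and 1294 (kd.1) and 1811 and 1738 (kd.2 minus kd.1) with the filter's genes kept, and 2015 (kd.1) and 5517 (kd.2 minus kd.1) with only the compared groups fitted. With the replicate block they numbered 2930, 3891 and 3340 and no member's call changed. The deviations of same-numbered libraries had correlations of 0.18 (kd.1 and kd.2), 0.02 (kd.1 and control) and -0.09 (kd.2 and control). With 2 libraries per group, these values cannot decide whether the numbers pair the libraries. Of 101 called changes of other named genes, 64 kept their call in every alternative run, 37 lost it in at least 1 and none reversed. CEBPA and the nearest-profile genes other than KHK are not among the 101. Count-based tests were not run, since the values are not counts.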
